A study of Mus musculus with 8 samples.

Results

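Amosite-treated fat cells were compared with saline-treated fat cells on 2 arrays of each, taken by their titles from a series of 8 arrays. The cells were mature adipocytes differentiated in culture from 3T3-L1, an established mouse preadipocyte line, so that a single line stands for the cell type and no immune or vascular cells were part of the culture by design. The amosite cells had received amosite fibres, given in the labels as 10 mg/cm2, for 72 h before total RNA was taken, and the control cells had received physiological saline, for which the labels give no separate time. Sister cultures with crocidolite and with chrysotile had 2 arrays each and the same stated dose and time. Their arrays also entered the choice of probes and the spread behind every test. Their values are given where amosite is set beside them. All non-control probes were considered, and 23054 genes, each represented by its brightest probe, were bright enough to test. Nothing in the labels says that replicates came from separate cultures. The spread behind every p-value may therefore be technical.

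Amosite is an amphibole asbestos, a straight and iron-rich silicate fibre. Asbestos fibres that cells cannot fully engulf or clear are known to cause oxidant production at the fibre surface, release of inflammatory mediators and, in phagocytes, activation of the inflammasome. Adipocytes store triglyceride under the control of the nuclear receptor encoded by Pparg, secrete adipokines such as adiponectin and leptin, and answer inflammatory cytokines with chemokines and acute-phase proteins such as serum amyloid A3. Type I interferon signalling works through a complex of transcription factors that binds a short repeated sequence in the promoters of its target genes.

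Nearly all interferon response genes turned out to share a sign in the comparison, and the promoters of 3 of them are therefore shown first. That sign depended on single arrays, as given further below. They are RefSeq sequences of build GRCm38.p6, cover the 250 bases before the gene's start and are written 5′ to 3′ on the gene's own strand. Capitals mark matches of the core of the interferon-stimulated response element, written as GAAA, any 2 bases and GAAA again, or on the other strand TTTC, any 2 bases and TTTC. Rsad2 (viperin, an antiviral enzyme) lies on the minus strand at chr12:26456453-26456702 and has 1 match, which begins 120 bases before the start. Isg15 (a ubiquitin-like protein) lies on the minus strand at chr4:156200819-156201068 and has 3 overlapping matches, the first 78 bases before the start. Ifit1 (an RNA-binding antiviral protein) lies on the plus strand at chr19:34640639-34640888 and has 2 matches, the first 104 bases before the start.
Rsad2: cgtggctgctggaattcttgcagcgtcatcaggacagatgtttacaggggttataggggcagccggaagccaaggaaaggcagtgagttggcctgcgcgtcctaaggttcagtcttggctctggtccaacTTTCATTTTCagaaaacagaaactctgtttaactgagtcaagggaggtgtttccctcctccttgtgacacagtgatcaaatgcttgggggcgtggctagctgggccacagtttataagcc
Isg15: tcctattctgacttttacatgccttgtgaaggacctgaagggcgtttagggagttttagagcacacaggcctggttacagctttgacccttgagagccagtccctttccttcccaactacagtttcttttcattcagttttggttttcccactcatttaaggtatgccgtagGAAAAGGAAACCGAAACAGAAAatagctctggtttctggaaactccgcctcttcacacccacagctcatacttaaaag
Ifit1: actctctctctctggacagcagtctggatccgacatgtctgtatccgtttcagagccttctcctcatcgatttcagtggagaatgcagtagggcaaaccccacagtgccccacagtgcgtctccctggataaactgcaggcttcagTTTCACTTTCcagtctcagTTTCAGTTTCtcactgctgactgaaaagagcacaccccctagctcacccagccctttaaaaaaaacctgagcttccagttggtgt
Over windows of 300 bases (250 before and 50 after the start), 12 of the 24 interferon members with a promoter sequence held the motif, against 1079 of 27025 genes (3.99%). A match is a description of the letters in the window and not evidence of binding.

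The array measures each transcript through a probe of 60 bases, and the probes of the genes on which the comparison turns are given as the deposited files have them, since they fix which transcript each value is about. Positions are those of the array design on mouse build mm9. Saa3, an acute-phase gene that was low with amosite and saline and bright with crocidolite, has its whole probe shown (chr7:53970389-53970448, minus strand). For the others the first 30 of 60 bases are shown. They are Bhlha9 (chr11:76487119-76487178, plus strand), Vmn2r109 (chr17:20677492-20677551, minus strand) and Timp3 (chr10:85811696-85811755, plus strand), all lower with amosite, and Ereg (chr5:91522553-91522612, plus strand) and Plau (chr14:21662242-21662301, plus strand), both higher. Whether a probe lies in coding sequence or an untranslated region was not analysed here.
Saa3: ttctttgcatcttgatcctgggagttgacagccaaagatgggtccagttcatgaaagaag
Bhlha9: ctgctgctgaactgagagaagcccagaaaa
Vmn2r109: cagagaagaattcatttcatcatatcaggg
Timp3: atagtgacttttggggatagatctgtctgg
Ereg: gatagtcatgtaccttgacatagtgaagga
Plau: gtgtatttctgtatctaactgcaagtctag

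On the 4 arrays, 33671 and 32642 of 55681 probes were well above background with amosite, against 32959 and 31292 with saline, by the scanner's own call. Values below are log2 intensities relative to the 75th percentile of their array, so that 0 is that percentile, and differences are amosite minus saline ± SE from 1 limma fit over the 8 arrays (n = 2 arrays per group). The number of arrays limits the precision. This fit does not pair same-numbered arrays, and SEs, intervals and p-values come from it unless another fit is named. The cells carried the adipocyte programme in both groups: all 22 adipocyte identity genes were well above background on every array, and their summed linear intensity over the 75th percentile was 4328 and 4615 with amosite, against 4295 and 5436 with saline. Of 16 macrophage markers, 10 and 10 were above background with amosite and 9 and 8 with saline, with summed levels of 63.0 and 67.5 against 67.4 and 74.9. Adgre1, Cd163 and Mrc1, which define tissue macrophages, did not pass the filter on dim probes. Preadipocyte and fibroblast markers summed to 665 and 462 with amosite, against 629 and 489 with saline. Endothelial markers summed to 29.7 and 27.8 against 27.9 and 31.7, with 3 of 9 above background on each of the 4 arrays. In cultures measured in bulk, fewer cells of a type and less RNA per cell cannot be told apart.

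No transcript passed the test between amosite and saline. The limma fit called 0 of 23054 genes (0%) at an adjusted p of 0.05, and the smallest adjusted p was 0.147. At an unadjusted p under 0.05 there were 614 genes (2.66%), 250 higher with amosite (1.08%) and 364 lower (1.58%). With the replicate number as a block this count was 1048 (4.55%), again with 0 called (smallest adjusted p = 0.208). The call of 0 moved with particular arrays. Without saline replicate 2 it was 58, a fit in which the lone saline array is assumed to vary like the other groups. Without either chrysotile array it was 2, and these 2 were Vmn2r109 and a transcript without a symbol.

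Most transcripts lay close to 0. The difference was within 0.5 log2 either way for 93.69% of genes, the median was -0.02, and the whole range was -3.99 to 2.62. Over genes, the SD of the difference was 0.267, against 0.374 for the difference between the 2 amosite arrays and 0.544 for that between the 2 saline arrays. The group difference compares means of 2 arrays, which carry less noise than the single arrays of a replicate difference. The groups did not overlap in 4868 genes (21.1%), of which 1891 were higher with amosite (8.2%) and 2977 lower (12.9%). With 2 arrays per group, values often separate in this way without any difference between the groups. At 2-fold without overlap, 89 genes were higher (0.386%) and 81 lower (0.351%). These counts moved with the processing, to 4 higher and 12 lower with only probes above background on all 8 arrays, 33 and 1 with normexp background correction, and 240 and 1110 with no filter on dim probes. With quantile normalization 150 were higher. They also moved with single arrays, to 517 higher and 360 lower without saline replicate 2, 225 higher without saline replicate 1, 168 higher and 195 lower without amosite replicate 1, and 215 higher and 156 lower without amosite replicate 2. The difference had the same sign in both same-numbered pairs in 44.09% of genes.

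**Figure D1:**
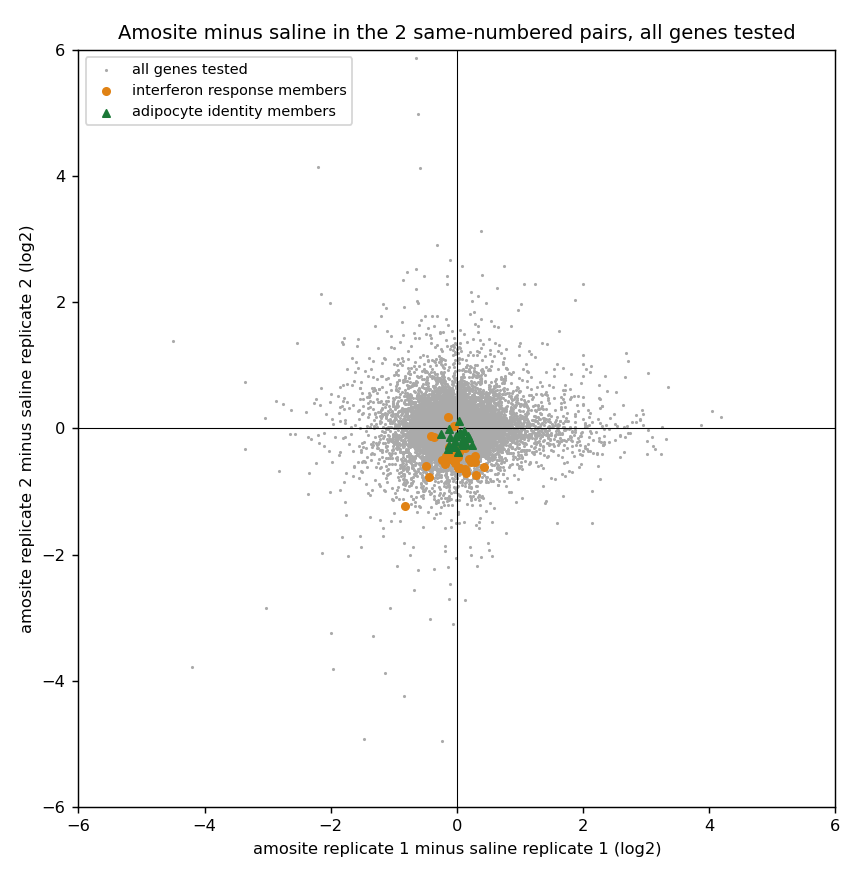
Each point is 1 of 23054 genes, with the log2 difference amosite minus saline between the replicate 1 arrays on the x axis and between the replicate 2 arrays on the y axis; orange points are interferon response members and green triangles adipocyte identity members. The cloud is centred near 0, and the interferon members lie mostly below 0 on the y axis, with a pair median of -0.49 there and -0.03 on the x axis.

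Among the genes with the smallest p, 2 were above background on every amosite and saline array. Bhlha9, a transcription factor gene of limb development, stood at -2.73 and -2.97 with amosite, against -1.21 and -1.09 with saline, a difference of -1.70 ± 0.16 (0.308 of the saline level, limma adjusted p = 0.282). Its amosite values were the lowest of all 8 arrays, below crocidolite (-2.06 and -1.83) and chrysotile (-1.62 and -1.33). Krtap19-5, which encodes a hair keratin-associated protein, stood at 1.88 and 2.01 with amosite, against 2.61 and 2.50 with saline (-0.61 ± 0.11, adjusted p = 1.00). Krtap19-5 was likewise below saline with crocidolite (1.91 and 1.92) and with chrysotile (2.12 and 2.17). The amosite and saline groups did not overlap in either gene.

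The other genes of smallest p were dim in 1 of the groups. Vmn2r109, a vomeronasal receptor gene, measured -6.84 and -6.77 with amosite, where it was not well above background, against -3.81 and -3.93 with saline, which makes it at least 1.87-fold lower with amosite (adjusted p = 0.209). The bound sets the dim group at the lowest signal of a probe well above background on its arrays. It was likewise under background with crocidolite (-6.74 and -6.95) and with chrysotile (-6.20 and -6.97), so that saline was the only group of the 4 to show it. Rbm46os, a transcript opposite to Rbm46, was at least 2.20-fold lower with amosite, D1Ertd646e at least 2.08-fold and Slc26a9, an anion transporter gene, at least 1.61-fold. F420014N23Rik was at least 1.89-fold lower, and BC021767, above background on 1 of 2 saline arrays, at least 1.49-fold. In the other direction, 6430531B16Rik was not above background with saline and was at least 1.83-fold higher with amosite. All of these had an adjusted p of 1.00 except Vmn2r109. Vmn2r109, Rbm46os and Slc26a9 passed the filter on dim probes through saline alone. The filter itself thus favoured a lower value with amosite, and their direction is not evidence of a decrease.

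**Figure D2:**
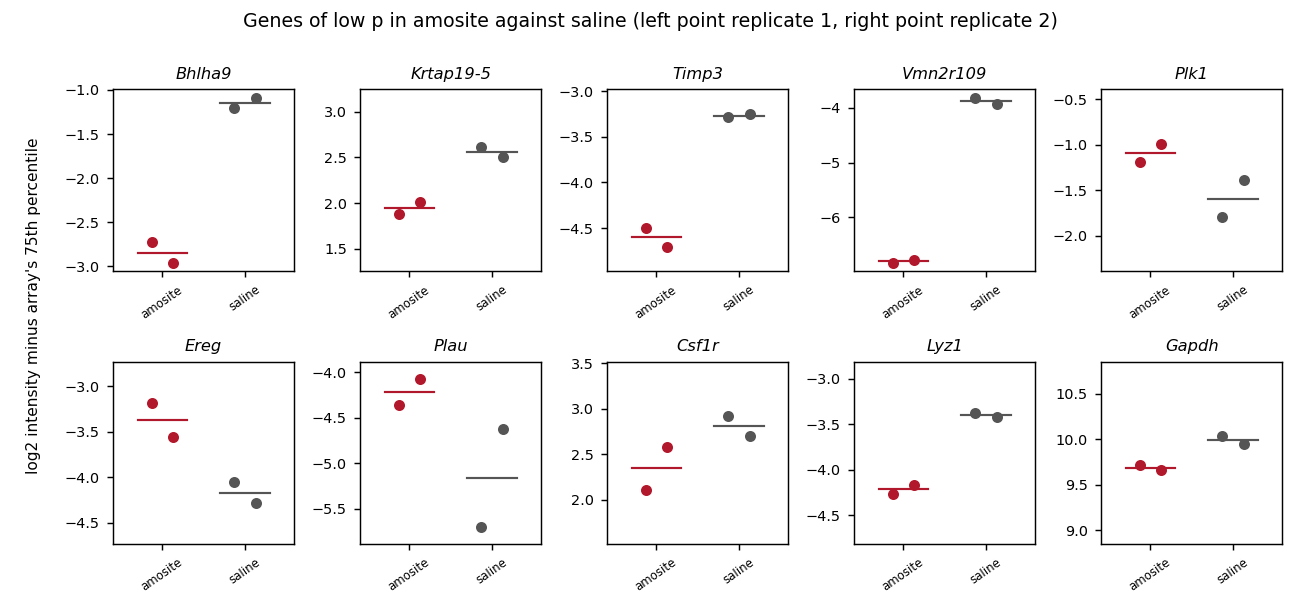
Normalised log2 intensity (y axis, relative to the array's 75th percentile) of 10 genes in amosite (red, left) and saline (grey, right); points are arrays, replicate 1 on the left of each pair, and bars are group means. The 2 groups do not overlap in any of the 10 genes, yet none passed the test across all genes, and the saline arrays of Plau lie about 1 log2 apart.

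Among transcripts above background on all 4 arrays and without overlap, several of the largest differences went with a saline replicate 1 that stood apart. Gm7298 was highest, at -1.07 and -1.35 with amosite against -2.98 and -1.87 with saline (1.22 ± 0.40). Lsm14b, an RNA-binding protein, stood at 2.05 and 0.94 against 0.05 and 0.79 (1.08 ± 0.44), and Sypl2, a synaptophysin-like membrane protein, at -3.06 and -3.58 against -4.33 and -4.24 (0.96 ± 0.35). In each of these the groups stayed apart, but for Lsm14b by only the gap between 0.94 and 0.79. Olfr1143, an olfactory receptor gene, had a difference of 0.94, Slc9a3r1, a scaffold for membrane transporters, 0.94, and Cldn4, a tight junction protein, 0.84. S100a4, a calcium-binding protein of fibroblasts, stood at 5.75 and 5.00 with amosite, against 3.95 and 4.98 with saline (0.91 ± 0.41). Adora2b, the low-affinity adenosine receptor, stood at -1.43 and -1.72 against -2.88 and -1.93 (0.82 ± 0.35). For S100a4 and Adora2b, too, most of the difference came from the low value of saline replicate 1. On the lower side, Syna, the syncytin-A envelope gene, stood at -3.78 and -3.93 with amosite against -0.42 and -3.60 with saline (-1.84 ± 0.91). The testis genes Tex45 (-1.36) and Adad1 (-1.32) and the kinase gene Alpk1 (-1.19) also had a bright saline replicate 1 and a saline replicate 2 near the amosite values. Gpx6, an olfactory glutathione peroxidase, stood at -1.26, AI504002 at -1.16 and Mup21, a major urinary protein, at -1.06.

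Inflammatory transcripts were measured to ask whether amosite moved the secretory response that fat cells mount to injury. With amosite none was called and their median lay near the saline level, but the intervals of single genes were wide. Of 25 cytokines and chemokines listed, 15 were bright enough to test, and 0 of 15 passed at an adjusted or an unadjusted p of 0.05. Their median difference was 0.07, with 8 positive, where the median of all genes was -0.02 and 44.6% of genes were positive. Tnf, Il1a and Il1b, the primary inflammatory cytokines, did not pass the filter on dim probes. Ccl2, the monocyte-attracting chemokine, stood at 0.26 and 0.68 with amosite, against -0.66 and 0.35 with saline, a difference of 0.62 ± 0.57 (95% interval -0.75 to 2.00). Ccl7 and Ccl8, chemokines of the same gene cluster, had differences of 0.06 ± 0.25 and 0.34 ± 0.42. Groups overlapped for each of the 3. Il6 measured -1.60 and -1.15 against -1.95 and -0.63 (-0.09 ± 0.52), and its saline arrays enclosed the amosite ones. Cxcl12, which holds haematopoietic cells in their niches, stood at 6.39 and 6.57 with amosite against 5.27 and 6.46 with saline (0.62 ± 0.40). Cxcl10, an interferon-induced chemokine for T cells, was the lowest of the list, at -0.81 and -0.19 against -0.12 and 0.64 (-0.76 ± 0.50), with no overlap.

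The acute-phase and complement genes behaved alike. Their 21 tested members had a median difference of 0.10 with 12 positive and 0 under an unadjusted p of 0.05. Saa3 stood at -2.92 and -2.50 with amosite, against -3.97 and -2.87 with saline, so that 1 saline array and both amosite arrays lay within about 0.5 of each other (0.71 ± 1.01, 95% interval -1.74 to 3.17). Lcn2, a lipocalin that binds bacterial siderophores, stood at -0.56 and -1.42 against -1.09 and -1.35 (0.23 ± 0.63). Hp, the haemoglobin-binding haptoglobin, stood at 4.44 and 5.93 against 4.15 and 5.89 (0.16 ± 1.30), and both groups showed the same step between replicates 1 and 2. C4b, a complement component, differed by 0.27 ± 0.52. Serpina3g, a serine protease inhibitor, was the highest of the list above background on all arrays, at -1.41 and -0.81 with amosite against -2.10 and -1.63 with saline (0.75 ± 0.57). Its groups did not overlap. Among the 17 NF-kB feedback and adhesion genes the median was 0.06 with 13 positive, the highest being Nfkbie, an inhibitor of NF-kB, at 0.24 ± 0.22. In the prostaglandin pathway the 10 tested genes had a median of 0.07, with Ptgs1, the constitutive cyclooxygenase, at 0.23 ± 0.13. Ptgs2, the inducible cyclooxygenase, was not well above background on any amosite or saline array.

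**Figure D3:**
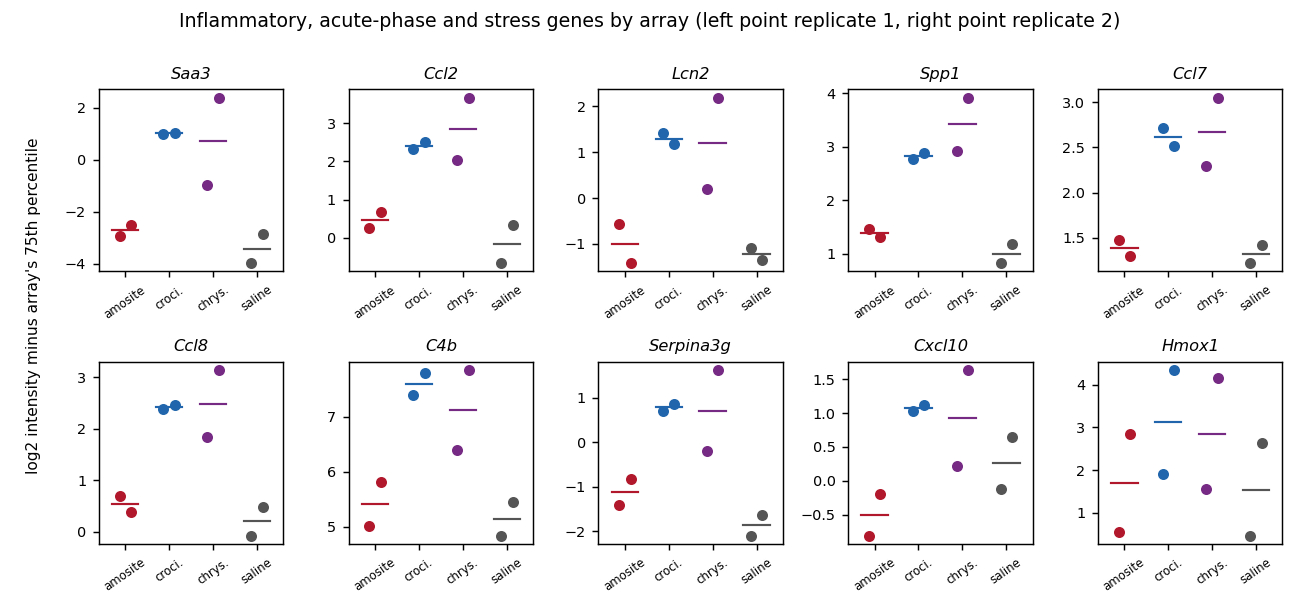
Normalised log2 intensity (y axis) of 10 inflammatory, acute-phase, matrix and stress genes in amosite, crocidolite (croci.), chrysotile (chrys.) and saline; points are arrays, replicate 1 on the left, and bars are group means. Saa3 lies between -2.92 and -2.50 with amosite and between -3.97 and -2.87 with saline, while both crocidolite arrays are near 1.0; Hmox1 shows a step of over 2 log2 between replicates 1 and 2 in every group.

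Amosite was also tested directly against each of the other fibres, with differences that do not involve the saline values and a spread estimated over all 8 arrays. The same limma fit called 0 genes against chrysotile (0%, smallest adjusted p = 0.168) and 0 against crocidolite (0%, 0.226). At an unadjusted p under 0.05 there were 998 (4.33%) against chrysotile and 1180 (5.12%) against crocidolite, and 1985 (8.61%) and 2304 (9.99%) with the replicate block. Without chrysotile replicate 2 there was 1 call against chrysotile, Tigit, an immune receptor gene that is outside the rule for named genes and is given here only for that reason. Of the 15 inflammatory genes, 14 were lower with amosite than with chrysotile and 13 lower than with crocidolite, with medians of -0.69 and -1.14, where 47.6% and 51.5% of all genes had a positive difference. At an unadjusted p under 0.05, 8 were lower than with chrysotile, where 2.62% of all genes were. Against crocidolite 10 were lower, where 2.48% of all genes were. At that p, 0 were higher than with chrysotile and 1 higher than with crocidolite, where 1.71% and 2.64% of all genes were. The medians for acute-phase genes were -0.35 and -0.60, with 6 and 8 of 21 lower at that p and 2 and 1 higher. All gene lists were chosen with earlier results of these data known, so such counts are not an independent test.

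Single members show the size of these gaps. Saa3 stood at -2.92 and -2.50 with amosite, against 1.00 and 1.03 with crocidolite and -0.97 and 2.38 with chrysotile, differences of -3.72 and -3.42 with adjusted p of 0.873 and 1.00. Ccl2 was lower by 1.95 against crocidolite (2.32 and 2.51 there) and by 2.38 against chrysotile (2.04 and 3.67), in log2. No amosite array of either gene overlapped the other fibres. Spp1, which encodes the matrix cytokine osteopontin, stood at 1.47 and 1.33 with amosite, against 2.77 and 2.88 with crocidolite and 2.92 and 3.92 with chrysotile, and at 0.83 and 1.18 with saline. Its amosite arrays thus lay between saline and the other fibres without overlapping any of them. The differences were 0.39 ± 0.32 from saline, -1.43 from crocidolite and -2.02 from chrysotile. The macrophage growth factor Csf1 differed from saline by 0.12 ± 0.17 and the membrane-bound chemokine Cx3cl1 by -0.04 ± 0.19. Ccl5 differed by -0.35 ± 0.36. Ccl7, Ccl8, Cxcl12, Hp, C4b, Csf1, Cx3cl1 and Ccl5 lie outside the rule for named genes and were picked after their values were seen.

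The interferon response list was negative in nearly all its members. Of its 30 tested members, 29 were negative, the median difference was -0.24, 2 were lower at an unadjusted p under 0.05 (1.58% of all genes were), and 5 were lower without overlap (12.9% of all genes were). Both counts include Oas3, which was under background with amosite and with saline, so that Rsad2 was the only measured member at that p. None passed over all genes. The sign depended on single arrays. In the replicate 1 pair the median was -0.03 and in the replicate 2 pair -0.49. Without saline replicate 2 the median was 0.22 with 5 of 30 members lower, without saline replicate 1 it was -0.69 with 30 lower, and without amosite replicate 1 it was 0.07 with 13 lower.

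Rsad2, whose promoter is shown above, stood at -0.91 and -0.93 with amosite, against -0.46 and -0.15 with saline, a difference of -0.61 ± 0.24 (95% interval -1.20 to -0.02). Its unadjusted limma p was 0.0445, and with the replicate block it was 0.0631, so that it no longer met the 0.05 used for the count. Its adjusted p was 1.00 in both fits. It was one of the members in which both pairs had the same sign and the groups did not overlap. Mx1, a GTPase that blocks influenza virus, stood at -0.11 and -0.51 against 0.37 and 0.09 (-0.54 ± 0.25), also without overlap, with a limma p of 0.0700 and, with the block, 0.0285. Oas3, an enzyme that makes the activator of the antiviral ribonuclease, was not well above background on any amosite or saline array and gets no fold between them. It was above background on all arrays of the other fibres. With amosite it was at least 2.46-fold lower than with chrysotile and at least 2.17-fold lower than with crocidolite (limma adjusted p = 0.168 and 0.425). Oas3 passed the filter on dim probes through chrysotile and crocidolite alone, so this direction is not evidence of a decrease.

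For several members the saline arrays were far apart. Isg15 stood at 3.99 and 4.50 with amosite, within the saline values of 3.57 and 5.11 (-0.09 ± 0.49). Ifit1 stood at 1.85 and 2.19 against 1.93 and 2.68 (-0.29 ± 0.28). Irf7, the transcription factor that amplifies interferon production, stood at -0.24 and 0.71 against -0.01 and 1.21 (-0.36 ± 0.53), and Bst2, which tethers viruses to the cell surface, at 3.16 and 4.62 against 3.34 and 5.06 (-0.31 ± 0.73). Ifit2 was within 0.01 of 0. Mx1, Isg15, Ifit1, Irf7, Bst2 and Ifit2 were named with their values known. Against the other fibres, amosite was lower in 29 of 30 members in each comparison, with medians of -0.56 against chrysotile and -0.60 against crocidolite. Over all genes, 47.6% and 51.5% had a positive difference. In each comparison 4 of 30 members were lower at an unadjusted p under 0.05, where 2.62% and 2.48% of all genes were. Both counts include Oas3, whose direction against these fibres was favoured by the filter on dim probes. The medians of these fibres against saline were 0.35 for chrysotile and 0.31 for crocidolite, and all 3 comparisons with saline share its arrays.

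**Figure D4:**
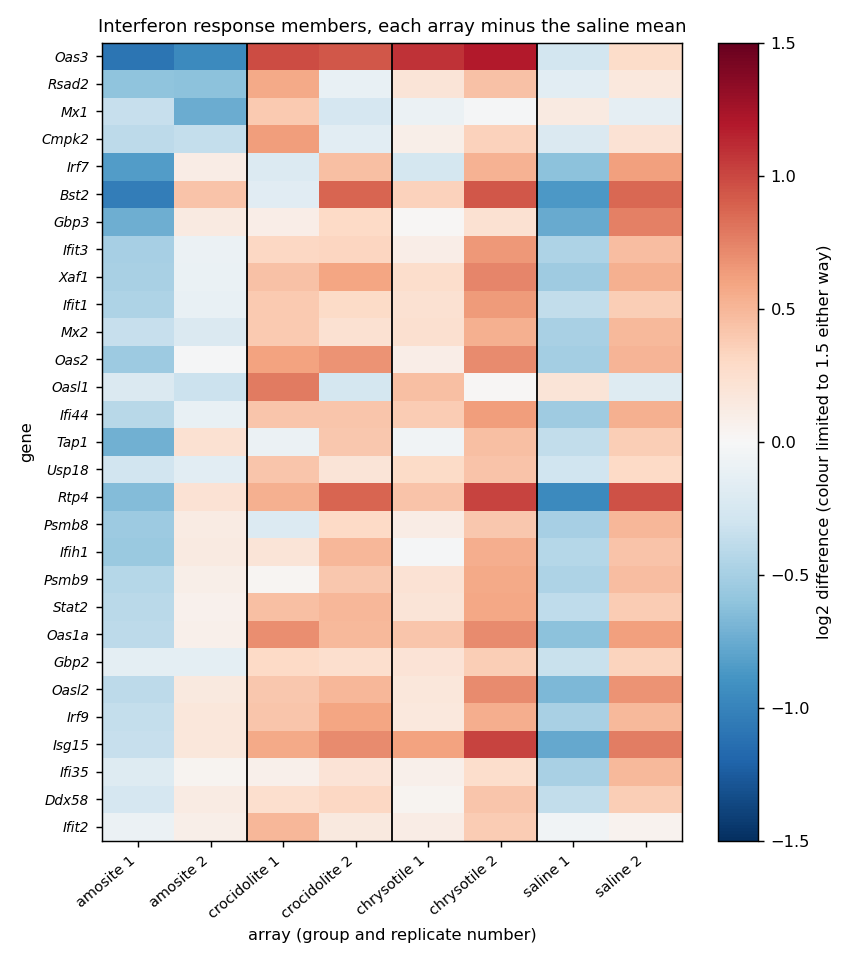
Colour gives the log2 difference of each array (columns, amosite first and saline last) from the mean of the 2 saline arrays for the 29 of 30 tested interferon response genes with a negative amosite minus saline difference (rows, lowest amosite minus saline difference at the top). Saline replicate 1 is below and saline replicate 2 above their mean in most rows, amosite replicate 1 is below it, and amosite replicate 2 is near it.

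Matrix and growth factor genes held some of the members of smallest unadjusted p. Of 20 matrix proteases, their inhibitors and plasminogen system genes, 1 was higher and 1 lower at an unadjusted p under 0.05. Over all genes, 1.08% were higher and 1.58% lower at that p. The median of the 20 was 0.08. Timp3, an inhibitor of metalloproteinases that stays bound to the matrix, stood at -4.50 and -4.71 with amosite, against -3.28 and -3.25 with saline (-1.34 ± 0.24, adjusted p = 1.00). It was dim throughout and above background on 1 of 2 amosite arrays. Plau, the urokinase plasminogen activator, stood at -4.36 and -4.08 with amosite and was under background with saline (-5.70 and -4.62), at least 1.34-fold higher. Its receptor gene Plaur differed by 0.44 ± 0.20, with -2.34 and -2.80 against -3.19 and -2.84. The Plaur groups were apart by less than 0.05, and 1 of its 2 saline arrays was under background. The collagenase gene Mmp13 stood at 0.47 and -0.23 against -0.66 and -0.55 (0.72 ± 0.42). The stromelysin gene Mmp3 differed by 0.27 ± 0.39 and the inhibitor Timp1 by 0.05 ± 0.28. Against chrysotile 7 of the 20 were lower with amosite at an unadjusted p under 0.05, where 2.62% of all genes were. Against crocidolite 6 were lower, where 2.48% of all genes were. The choice of Plaur, Mmp3 and Timp1 was made with their values known.

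Ereg, which encodes the EGF receptor ligand epiregulin, stood at -3.19 and -3.56 with amosite, against -4.05 and -4.28 with saline, where it was above background on 1 of 2 arrays (0.79 ± 0.20, 1.74-fold, adjusted p = 1.00). It was higher still with crocidolite (-2.61 and -3.03) and chrysotile (-2.42 and -2.48). Hbegf, another ligand of that receptor, differed by 0.38 ± 0.27, and the sign was the opposite under the normexp background correction. The 22 tested growth factor genes had a median of 0.01, and Hgf, the hepatocyte growth factor, was within 0.01 of 0. The 25 collagens and matrix genes had a median of -0.13, with 21 negative and 0 under an unadjusted p of 0.05. Col1a1 and Col1a2, the chains of type I collagen, stood at -0.15 ± 0.15 and -0.20 ± 0.13, Col3a1 at -0.13 ± 0.15 and the matrix glycoprotein gene Sparc at -0.08 ± 0.16. Eln, the elastin gene, was lowest at -0.51 ± 0.67, and Col12a1, a fibril-associated collagen, highest at 0.71 ± 0.33 (-0.66 and -1.05 against -1.88 and -1.24). Genes induced through TGF-beta, SRF or YAP had a median of 0.02, from Ccn2 at -0.28 ± 0.92 to, among members above background on all arrays, Acta2 at 0.29 ± 0.54. Col1a1, Col1a2, Col3a1 and Sparc were added with their values known.

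The estimated differences of the adipocyte's own genes were small, with none called. Of 22 identity genes 0 had an unadjusted p under 0.05, 18 were negative and the median was -0.07, with a range from -0.23 for Agpat2, an acyltransferase of triglyceride synthesis, to 0.07 for Lipe, the hormone-sensitive lipase. Pparg stood at 7.0 and 7.13 with amosite, against 6.81 and 7.28 with saline (0.02 ± 0.18, 95% interval -0.40 to 0.45). Adipoq, which encodes adiponectin, stood at 9.22 and 9.28 against 9.19 and 9.65 (-0.17 ± 0.17). In both genes the saline arrays enclosed or overlapped the amosite ones. Fabp4, the fatty acid carrier of fat cells, differed by -0.05 ± 0.16, Cebpa by -0.02 ± 0.36, the lipid droplet gene Plin1 by -0.06 ± 0.28 and the insulin-regulated glucose transporter Slc2a4 by -0.07 ± 0.22. The adipokine genes Lep, Retn and Cfd stood at -0.25 ± 0.53, -0.18 ± 0.39 and -0.16 ± 0.12.

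Lipid and energy genes gave the same picture. The 22 lipogenesis and lipolysis genes had a median of -0.05, the 17 fatty acid oxidation genes -0.02 and the 18 cholesterol genes 0.03. Fasn, the fatty acid synthase, stood at 1.07 and 1.27 with amosite against 1.27 and 1.43 with saline (-0.18 ± 0.13), and Scd1, the stearoyl-CoA desaturase, differed by -0.03 ± 0.11. The groups of Fasn did not overlap, by a margin of less than 0.01. Of 26 oxidative phosphorylation genes, 19 were negative with a median of -0.07, and all 26 were higher with amosite than with chrysotile and with crocidolite, by medians of 0.16 and 0.20. Against chrysotile 0 and against crocidolite 1 of these 26 were higher at an unadjusted p under 0.05, where 1.71% and 2.64% of all genes were. Cycs, the cytochrome c gene, was lowest, at 6.96 and 6.89 against 7.23 and 7.22 (-0.31 ± 0.13), with no overlap and the opposite sign under the normexp background correction. Its 2 saline arrays differed by less than 0.01. The 15 insulin signalling genes had a median of -0.06, with Akt2 lowest at -0.21 ± 0.11 and Socs3, a feedback inhibitor of cytokine signalling, highest at 0.17 ± 0.49.

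The beta-adrenergic receptors are those through which catecholamines start lipolysis. Adrb1 stood at -3.53 and -3.42 with amosite, against -3.78 and -3.90 with saline (0.36 ± 0.17), with the opposite sign under the normexp background correction. Adrb3, the main beta receptor of rodent fat, stood at 4.85 and 6.20 with amosite and 4.97 and 6.46 with saline (-0.19 ± 0.76), and its replicates differed by more than 1 log2 in each group. Ucp1 and Prdm16, which mark thermogenic fat, did not pass the filter on dim probes. Among the 10 tested genes of the thermogenic and adrenergic list, 4 were higher with amosite than with chrysotile at an unadjusted p under 0.05. Against crocidolite 3 were higher at that p. Over all genes, 1.71% and 2.64% were.

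Stress and metal genes are of interest because amosite carries iron. Hmox1, which degrades heme and responds to oxidants, stood at 0.55 and 2.85 with amosite, against 0.45 and 2.63 with saline (0.16 ± 1.35). The wide SE came from a step between replicates 1 and 2 that all groups shared, and with the replicate block the unadjusted limma p was 0.259. Hmox1 stood higher with crocidolite (1.90 and 4.34) and chrysotile (1.56 and 4.15), so that amosite differed by -1.42 from crocidolite and by -1.16 from chrysotile. With the replicate block the limma p of these differences was 9.06e-05 and 0.000245, with adjusted p of 0.429 and 0.435, against unadjusted 0.333 and 0.424 without it. Nqo1, an oxidant-induced quinone reductase, differed by 0.01 ± 0.17. The 24 iron handling genes had a median of 0.08 with 16 positive. Tfrc, the transferrin receptor, stood at 2.03 and 2.57 with amosite and 1.94 and 2.42 with saline (0.12 ± 0.28), against 1.05 and 1.54 with crocidolite and 1.64 and 1.35 with chrysotile. Its amosite arrays lay above those of both other fibres, by 1.01 and 0.80 on average. The ferritin genes Fth1 and Ftl1 differed from saline by -0.10 ± 0.12 and -0.07 ± 0.12, Aco1, the iron-responsive aconitase, by -0.29 ± 0.17 and the iron exporter gene Slc40a1 by 0.29 ± 0.22. The ferrireductase genes Steap1 and Steap4 differed by 0.25 ± 0.30 and 0.08 ± 0.52. Fth1, Ftl1, Steap1 and Steap4 were named with their values known, and Ftl1 has close copies in the genome that its probe may also read. The metallothionein gene Mt1 was at -0.17 ± 0.12.

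Further stress programmes had medians of 0.06 for 24 NRF2 antioxidant genes, 0.04 for 16 integrated stress response genes, -0.06 for 16 ER chaperones, -0.04 for 14 heat shock genes and 0.03 for 19 p53 targets. Ddit3, the stress-induced transcription factor CHOP, differed by 0.02 ± 0.33, Cdkn1a, the cell cycle inhibitor p21, by -0.05 ± 0.23, and Plk2, a polo-like kinase, by 0.38 ± 0.17. None of the members of these lists had an unadjusted p under 0.05. Against the other fibres the ER chaperones were lower in 14 of 16 (chrysotile) and 16 of 16 (crocidolite), with medians of -0.19 and -0.33. Over all genes, 47.6% and 51.5% had a positive difference. At an unadjusted p under 0.05, 2 and 7 members were lower, where 2.62% and 2.48% of all genes were. Of 25 cell cycle genes 17 were positive, with a median of 0.04. Plk1, a mitotic kinase, stood at -1.19 and -0.99 with amosite, against -1.80 and -1.39 with saline (0.50 ± 0.16, 1.42-fold), without overlap. The 27 hypoxia and glycolysis genes had a median of 0.03 with 20 positive. Gapdh, the glycolytic enzyme often used as a reference, was lowest, at 9.71 and 9.66 against 10.03 and 9.95 (-0.30 ± 0.12), but its sign was the opposite under normexp background correction and with the mean of its probes, and its probe is placed by the array design on chromosome 7, where a copy may be read.

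The last lists held few differences. The 28 cytosolic ribosomal protein genes had a median of -0.04 with 23 negative, and pair medians of 0.11 and -0.19. The 25 lysosome and phagosome genes had a median of 0.03, the 19 autophagy genes 0.01, the 18 clock genes -0.07, the 12 adipokines -0.07 and the 7 metallothionein and zinc genes 0.02. Macrophage markers had a median of 0.04 over 9 tested, with Lyz1, a lysozyme, at -4.26 and -4.17 with amosite against -3.37 and -3.42 with saline (-0.82 ± 0.29) and Csf1r, the receptor for Csf1, at 2.11 and 2.58 against 2.92 and 2.70 (-0.46 ± 0.19). Both were without overlap and lower at an unadjusted p under 0.05. Over all genes, 12.9% were lower without overlap and 1.58% lower at that p. Cd14 stood at 0.20 ± 0.30 and Itgam at -0.10 ± 0.13. The part of such cells in any difference was not tested. Itgam was named with its value known.

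**Figure D5:**
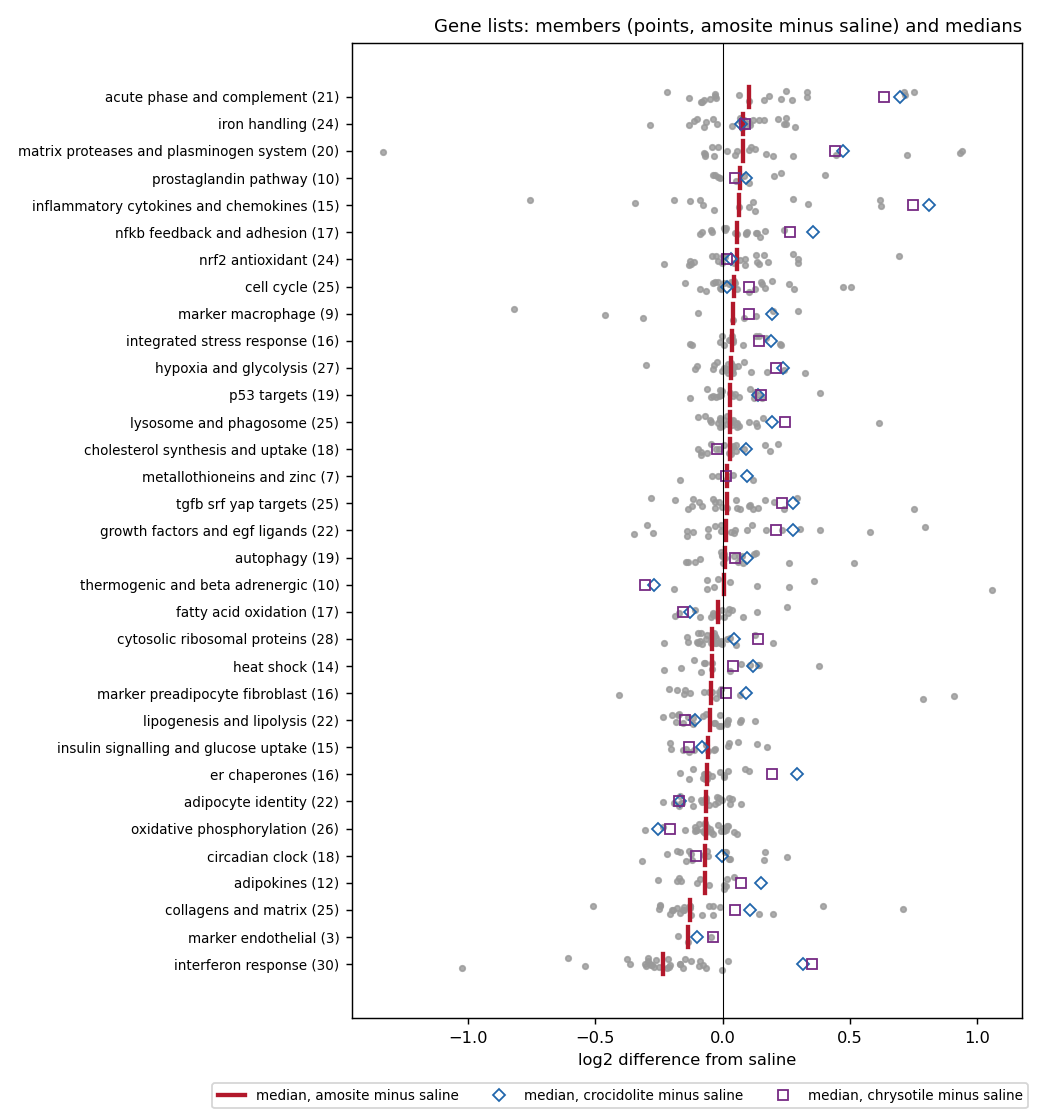
Grey points are the log2 differences amosite minus saline of the tested members of each gene list (rows, number tested in brackets), red bars their medians, and open diamonds and squares the medians of crocidolite and chrysotile minus the same saline arrays. The red bars run from -0.24 for the interferon list to 0.10 for the acute-phase list, while the inflammatory list reaches 0.81 with crocidolite and 0.75 with chrysotile.

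The genes of smallest p between amosite and another fibre complete the comparison. Tnnt2, the cardiac troponin T gene, stood at -2.48 and -2.73 with amosite, against -0.27 and -0.01 with chrysotile (-2.46, limma adjusted p = 0.168), and at -2.08 and -1.56 with crocidolite. Its level with saline was -2.94 and -2.93, close to that with amosite (0.33 ± 0.21). Vmn1r176, another vomeronasal receptor gene, was under background with chrysotile and at least 1.28-fold higher with amosite. Against crocidolite, Ttll7, a tubulin glutamylase, stood at -3.46 and -3.69 with amosite and -2.68 and -2.56 with crocidolite (-0.96, adjusted p = 0.873). Gm9975 differed by -1.10 in the same direction. Mtnr1b, a melatonin receptor gene, was under background with crocidolite and at least 1.60-fold higher with amosite. Mtmr7, a phosphatase gene, was under background with amosite and at least 1.35-fold lower than with crocidolite. Vmn1r176 passed the filter on dim probes through amosite alone, and Mtmr7 through crocidolite alone. The filter itself thus favoured the direction seen, which is not evidence of a difference in these genes. For Ttll7 and Gm9975, as for Tnnt2, the amosite and saline arrays lay within 0.5 of each other.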

How the data were processed

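Gene expression was measured in 3T3-L1 adipocytes on 1-colour Agilent arrays (Cy3), 2 per group. Per the file headers, the authors read the arrays with Feature Extraction 10.7.1.1 (10.7 per the submitters' processing notes), and the deposited values are linear processed intensity per spot, background-subtracted and not scaled from array to array. The deposited values of the series' matrix were the same (largest difference 0). From there, control spots were dropped together with 99 to 183 outlier-flagged spots on each array, 9 probes missing on an array were dropped, and log2 intensity was centred on each array's 75th percentile, which ran from 340.09 to 453.43. No probe was saturated. The 33044 probes kept were well above background in at least 1 group on each of its arrays. Symbols were updated through RefSeq for 26762 probes, taken from the files for 6449 and absent for 22470. The brightest probe stood for each of 23054 genes (16390 with a symbol).

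All contrasts came from 1 limma fit over 8 arrays (lmFit and eBayes, limma 3.58.1 in R 4.3.3, with statmod 1.5.0; 4 residual and 2.22 prior degrees of freedom), and two-sided p-values adjusted by Benjamini-Hochberg, with a threshold of 0.05. The fit was tested on simulated data. The arrays lay on 1 slide, the slide column being the replicate number and the row the group. Row and group thus cannot be told apart. Same-numbered arrays deviated together in all 6 pairs of groups (correlations of 0.254 to 0.455). The main fit left this pairing out, and a fit with the replicate number as a block was run beside it. The block changed SEs of single genes in both directions, from 0.76 to 0.10 for Adrb3 and from 0.24 to 0.26 for Rsad2. The unadjusted limma p of Lep went from 0.646 to 0.0430 and that of Rsad2 from 0.0445 to 0.0631. The first principal component (32.3%) separated the replicate numbers. Named genes were the 10 smallest p, the 8 highest and 8 lowest differences without overlap, a panel of 25, the extremes and members at an unadjusted p under 0.05 of each list, and the 5 smallest p against each other fibre. The members and lists were chosen with earlier results of these data known. Alternatives were other samples in the fit, normalization, background correction, filters, prior, probe rule, the deposited table, the block and leaving out each array. Results for some genes are not reported here.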

Additional observations from a re-analysis of the deposited data

How the results depend on the processing

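The count of genes called between amosite and saline was 0, and among settings that kept all arrays it differed only with quantile normalization. It was 2 with quantile normalization (Vmn2r109 and a transcript without a symbol). Leaving out single arrays gave 0 to 58, with 58 without saline replicate 2 and 2 without either chrysotile array. Against chrysotile leaving out arrays gave 0 to 1, against crocidolite 0 throughout, and both were 0 in the other settings. Genes at an unadjusted p under 0.05 (614) numbered 1048 with the replicate block, 1431 with no filter on dim probes, 384 with a trended and robust prior, and 461 to 2206 when arrays were left out. The replicate block changed no call at an adjusted p of 0.05. Where an array was left out, its group's lone array was assumed to vary like the other groups. An alternative chosen after seeing the data, which joined that block to the trended prior, gave 871. Genes at 2-fold without overlap numbered 89 higher and 81 lower. The higher ones were 150 with quantile normalization, 33 with normexp, 240 with no filter, 4 with only probes above background on all 8 arrays, and 89 to 517 when arrays were left out. The lower ones were 1 with normexp, 1110 with no filter, 12 with the strict filter and 81 to 360 when arrays were left out. The interferon median (-0.24, 29 of 30 lower), whose alternatives were chosen after seeing the data, ran from -0.69 to 0.22 with 5 to 30 lower when arrays were left out, and from -0.24 to -0.20 with 28 or 29 lower otherwise. Of 158 named genes, the sign differed in 41 without saline replicate 2, 28 without saline replicate 1, 37 and 22 without amosite replicate 1 and 2, 12 with normexp, 9 with quantile normalization, 7 with the mean of a gene's probes, 1 with median centring and 1 with no filter. The cause of these shifts was not tested. Dim probes limit the comparison: 20910 genes were above background on all 4 arrays.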
